A study of Mus musculus with 4 samples.

Results

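The 10 genes described here encode the lipid storage machinery and secreted products of fat cells: Adipoq, Cfd, Fabp4, Plin1, Scd1, Car3, Lpl, Cidec, Lipe and Retn. They were chosen by name and not by a threshold on a value, although earlier results of these data were known, and all 10 were found among the 16472 genes of the table. RNA came from skeletal muscle of wild-type (WT) mice, whose age, sex and strain the labels do not give. It was sequenced in 2 libraries of isolated mitochondria and 2 libraries of the tissue that remained, called remaining tissue below. The treatment label describes the second group as tissue without its mitochondria, while the titles call it total and a legend of the study speaks of lysates of total muscle, so the sources disagree on whether it is depleted or whole muscle. Nothing states that the replicates came from separate animals, so the spread between them may be technical.

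White adipocytes store triglyceride in a single large droplet and release it as fatty acids when energy is needed. They take up fatty acids that Lpl frees from circulating lipoproteins, coat the droplet with Plin1 and Cidec, break triglyceride down with Lipe, and secrete hormones such as adiponectin (Adipoq). Fat cells lie between muscle fibres and around muscle bundles, while Lpl, Car3 and Fabp4 are also made by muscle fibres, endothelium or other cells of the tissue.

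In these libraries most of the adipocyte genes differed between both libraries of remaining tissue: 9 of the 10 were higher in replicate 2, 6 of them by more than 2-fold, and Lpl was level. Over 11151 genes with a mean of at least 5 in remaining tissue the median ratio was 1.00, and 0.664% were over 2-fold higher in replicate 2. Between isolated mitochondria and remaining tissue, 1 of the 7 genes with enough counts to be tested, Car3, passed the threshold, at a lower level in isolated mitochondria. Of all genes tested 9.3% passed it at a lower level and 7.32% at a higher one. Adipoq, Cfd, Plin1, Cidec, Lipe and Retn rested on 12 reads or fewer in each library of isolated mitochondria.

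Values are normalized counts, which the authors made by dividing gene counts by a size factor for each library and rounding. In remaining tissue 1 read was worth an estimated 0.142 normalized counts, taken as the same for both libraries. In isolated mitochondria it was worth 9.05 in replicate 1 and 5.06 in replicate 2. Libraries of remaining tissue held an estimated 15704019 and 15301842 reads, and those of isolated mitochondria 42750315 and 35305321. Mitochondrially encoded genes took 94.1% to 95.3% of the reads in isolated mitochondria and 20.5% to 22.3% in remaining tissue. Nuclear genes outside copies of the mitochondrial genome were left with 100924 and 181152 reads in isolated mitochondria, against an estimated 11989612 and 11968664 in remaining tissue.

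The stretches before the transcription start are shown for the 5 genes whose values in remaining tissue differed the most among those with a promoter in the RefSeq set used here. These are chr16:23146286-23146535 (plus strand), chr10:79890603-79890852 (plus), chr7:79732904-79733026 (minus), chr6:113434765-113435014 (minus, before the second of its starts, in an intron of its longer transcripts) and chr8:3655520-3655769 (plus), all on GRCm38.p6. Sequences are 5′ to 3′ and stop where an exon of the gene begins. Capitals mark matches to TTGCNNAA, the letters used for a binding site of C/EBP factors, which drive fat cell formation.
Adipoq: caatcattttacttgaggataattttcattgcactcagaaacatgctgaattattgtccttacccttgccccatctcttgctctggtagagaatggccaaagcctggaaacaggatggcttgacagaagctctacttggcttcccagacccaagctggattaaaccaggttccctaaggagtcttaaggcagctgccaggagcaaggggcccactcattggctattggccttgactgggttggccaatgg
Cfd: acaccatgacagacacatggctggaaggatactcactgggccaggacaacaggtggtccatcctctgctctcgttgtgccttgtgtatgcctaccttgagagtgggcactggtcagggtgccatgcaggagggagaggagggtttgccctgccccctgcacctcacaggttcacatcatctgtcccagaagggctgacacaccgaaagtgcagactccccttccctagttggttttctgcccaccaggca
Plin1: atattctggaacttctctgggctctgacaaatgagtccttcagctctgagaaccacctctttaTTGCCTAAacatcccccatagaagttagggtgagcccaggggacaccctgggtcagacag
Cidec: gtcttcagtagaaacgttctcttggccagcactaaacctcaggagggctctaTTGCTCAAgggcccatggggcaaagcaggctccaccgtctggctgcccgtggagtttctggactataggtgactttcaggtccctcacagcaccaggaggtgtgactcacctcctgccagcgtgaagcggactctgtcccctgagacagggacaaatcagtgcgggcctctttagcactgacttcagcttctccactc
Retn: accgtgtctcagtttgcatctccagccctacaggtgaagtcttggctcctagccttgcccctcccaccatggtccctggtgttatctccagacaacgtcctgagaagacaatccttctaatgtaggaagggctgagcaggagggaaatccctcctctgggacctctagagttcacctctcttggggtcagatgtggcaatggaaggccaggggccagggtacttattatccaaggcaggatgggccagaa

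A promoter window of 250 bases before to 50 after the start was found in the set for 6 of the 10 genes (Adipoq, Cfd, Plin1, Cidec, Lipe and Retn). Both strands of these windows were searched for 4 motifs. Cidec and Lipe have 2 windows each. TTGCNNAA was found in Plin1, as TTGCCTAA at 187 bases and TTGCCCAA at 58 bases before the start, and in Cidec, as TTGCTCAA at 198 bases before its second start. The window of the first start of Cidec held no match. The match at 58 bases lies in an exon of another Plin1 transcript and is not shown. Of all 32851 promoter windows 10.8% held this motif. No window of the 6 genes held AGGTCA, a half-site of nuclear receptors such as PPARγ (16.3% of all windows), a pair of AGGTCA copies in the same direction with 1 base of any kind between them (0.0396%, all of which also hold the half-site) or the TATA box TATAAA (13.6%). These are matches of letters and say nothing of binding.

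**Figure D1:**
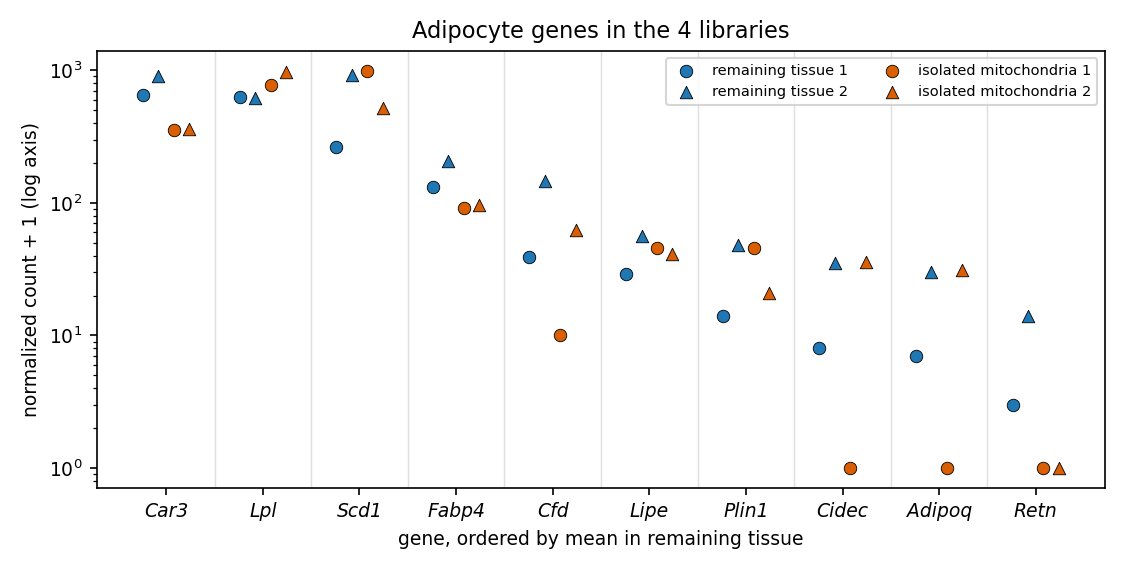
Normalized count plus 1 (log axis) of the 10 adipocyte genes in each of the 4 libraries, ordered by their mean in remaining tissue; circles are replicate 1 and triangles replicate 2. Both libraries of remaining tissue lie apart for Scd1 and Cfd and close together for Lpl, and Adipoq, Cidec and Retn stand at 0 in isolated mitochondria replicate 1.

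The adipokine genes Adipoq, Cfd and Retn were higher in remaining tissue replicate 2 than in replicate 1. Adipoq (chromosome 16, 23146536 to 23158028, plus strand) encodes adiponectin, a hormone that raises fatty acid oxidation in muscle and liver. It had 6 normalized counts in remaining tissue replicate 1, 29 in replicate 2, 0 in isolated mitochondria replicate 1 and 30 in replicate 2. The high values were those of replicate 2 in both fractions, and the groups overlapped. Replicate 2 was 4.83 times replicate 1 in remaining tissue, with an exact interval of 3.47 to 6.94 from the 42 and 204 estimated reads. These intervals include no error other than that of counting, and without molecular identifiers several reads can stem from a single molecule. Rounding of the deposited values, which they also leave out, allows 4.38 to 5.36.

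Cfd (chromosome 10, 79890853 to 79892655, plus strand) encodes adipsin, the serine protease of the alternative complement pathway that fat cells secrete. Its values were 38 and 146 in remaining tissue and 9 and 61 in isolated mitochondria, the latter from 1 and 12 reads. Replicate 2 was again the higher library in each fraction. The ratio in remaining tissue was 3.84 (3.35 to 4.41).

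Retn (chromosome 8, 3655770 to 3660110, plus strand) encodes resistin, which opposes insulin action in mice. It stood at 2 and 13 normalized counts in remaining tissue and at 0 in both libraries of isolated mitochondria. The ratio of 6.5 in remaining tissue was the largest of the 10 genes and the least precise, at 3.72 to 12.5 from 14 and 92 estimated reads. The rounding of its low deposited values by itself leaves a range of 5.0 to 9.0. A count of 0 reads allows up to 27.1 and 15.2 normalized counts in isolated mitochondria replicates 1 and 2, above both values of remaining tissue. A lower level of Retn in isolated mitochondria was therefore not detectable at this depth, and no fold is given.

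The droplet genes Plin1 and Cidec and the lipase gene Lipe were also higher in remaining tissue replicate 2. Other genes of lipid droplets and triglyceride breakdown, listed further below, were mostly level between these libraries. Plin1 (chromosome 7, 79720218 to 79732903, minus strand) encodes perilipin 1, which coats the droplet and gates access of lipases. It had 13 and 47 normalized counts in remaining tissue and 45 and 20 in isolated mitochondria. Replicate 2 was the higher library in remaining tissue, by 3.62 times (2.85 to 4.58), and the lower one in isolated mitochondria, where the values rest on 5 and 4 reads. Parts of its transcript of at least 50 nt match those of 656 other genes at 90% identity and of 18 at 95%, so some of its reads may have been left out in the counting.

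Cidec (chromosome 6, 113424634 to 113435760, minus strand) encodes a protein that fuses droplets into one. Its values were 7 and 34 in remaining tissue and 0 and 35 in isolated mitochondria. They resembled those of Adipoq in each library, and the ratio of 4.86 (3.59 to 6.80) lay beside the 4.83 of Adipoq, well inside its interval.

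Lipe (chromosome 7, 25379527 to 25398710, minus strand) encodes hormone-sensitive lipase, which breaks diglyceride down. It had 28 and 55 normalized counts in remaining tissue, a ratio of 1.96 (1.65 to 2.35, and 1.91 to 2.02 by rounding alone), and 45 and 40 in isolated mitochondria, within the range of remaining tissue. A gene on the opposite strand, 4732471J01Rik, overlaps it over 121 nt of transcript. According to the methods, reads overlapping several genes were left out. The strand setting of the counting is not stated, so reads of Lipe may have been lost there.

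Scd1 (chromosome 19, 44394455 to 44407879, minus strand) encodes the desaturase that makes monounsaturated fatty acids for triglyceride. Its values in remaining tissue were 262 and 919, and in isolated mitochondria 995 and 516. The lowest value was that of remaining tissue replicate 1, and the groups overlapped. The ratio in remaining tissue was 3.51, and with 1847 and 6479 estimated reads the interval was narrow, at 3.33 to 3.70. Its paralogue Scd3 shares a stretch of 1053 nt at 91.4% identity, so reads of either may be split or lost. Scd3 had 3 and 10 normalized counts in remaining tissue.

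Of the genes that muscle also makes, Lpl (chromosome 8, 68880491 to 68907448, plus strand) encodes lipoprotein lipase, which frees fatty acids at the capillary wall. Its values of 626 and 623 in remaining tissue were nearly the same, a ratio of 0.995 (0.954 to 1.04), and were below the 769 and 976 of isolated mitochondria. Parts of its transcript match 98 other genes at 90% identity and 1 at 95%.

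Fabp4 (chromosome 3, 10204088 to 10208576, minus strand) encodes a fatty acid carrier of fat cells and capillary endothelium. It had 131 and 206 normalized counts in remaining tissue, a ratio of 1.57 (1.45 to 1.71), and 90 and 96 in isolated mitochondria. Car3 (chromosome 3, 14863512 to 14872523, plus strand) encodes carbonic anhydrase 3, abundant in fat and in slow muscle fibres. It had 649 and 903 in remaining tissue, a ratio of 1.39 (1.34 to 1.45), and 353 and 359 in isolated mitochondria. For both genes each library of isolated mitochondria lay below each library of remaining tissue.

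Per kilobase of the principal transcript, levels in remaining tissue ran in the order Car3 (386.5 and 538 normalized counts per kilobase in replicates 1 and 2), Fabp4 (146 and 230), Lpl (152 and 151), Scd1 (54.2 and 190.2), Cfd (41.2 and 158), Adipoq (4.64 and 22.4), Cidec (4.07 and 19.8), Lipe (7.75 and 15.2), Plin1 (4.61 and 16.7) and Retn (2.29 and 14.9). Car3 stood above every other gene in both libraries. The ranges of Fabp4, Lpl, Scd1 and Cfd overlapped from neighbour to neighbour, as did those of Adipoq, Cidec, Lipe, Plin1 and Retn. The lowest value of Cfd, 41.2, exceeded the highest of these last 5, 22.4.

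The comparison of both libraries of remaining tissue was set against all genes. Of 11151 genes with a mean of at least 5 normalized counts in remaining tissue, 74 (0.664%) were over 2-fold higher in replicate 2 and 50 (0.448%) over 2-fold higher in replicate 1. Of the adipocyte genes, 6 of 10 were over 2-fold higher in replicate 2 and 0 in replicate 1. Their median ratio was 3.56, beside a median of 1.00 over all these genes, with the 5th and 95th percentiles at 0.727 and 1.38. With 1 library on each side no test can be made, and these are descriptions of 2 libraries. In RNA of whole tissue, fewer cells of a type and less RNA per cell cannot be told apart.

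Low genes scatter more, so each ratio was also set against genes at a similar level. A ratio as high as that of Retn was found in 0.0223% of 4478 such genes, of Cidec in 0.0420%, of Adipoq in 0.0625%, of Cfd in 0.0365% and of Plin1 in 0.153%. For Scd1 the share was 0.246% of 407 genes, for Lipe 0.482%, for Fabp4 1.14% and for Car3 1.74% of 287 genes. For Lpl it was 39.8% of 369 genes. The smallest share that can be found depends on how many genes lie at a level, 407 for Scd1 and 2743 for Cfd. These shares therefore do not rank the 10 genes, and other adipocyte genes at a similar level were left in. Lpl lay near the middle of the genes at its level.

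**Figure D2:**
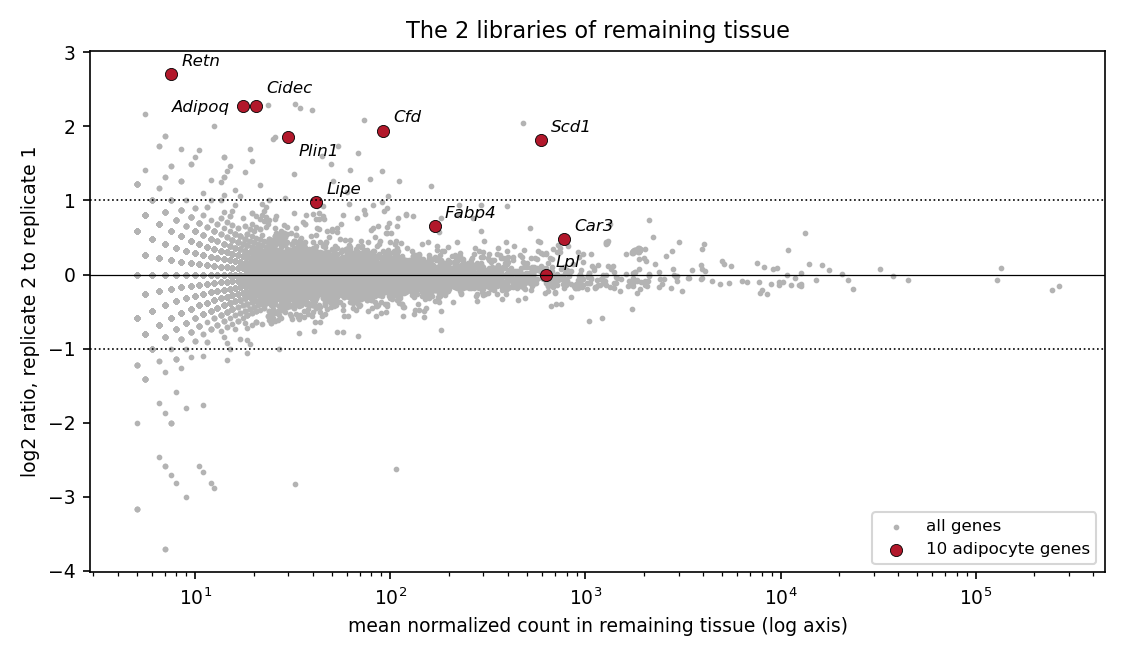
Log2 ratio of remaining tissue replicate 2 to replicate 1 against the mean normalized count in remaining tissue (log axis) for 11151 genes with a mean of at least 5; red points are the 10 adipocyte genes and dotted lines mark 2-fold. Retn, Cidec, Adipoq, Cfd, Plin1 and Scd1 lie above the upper line, Lipe just below it at 1.96-fold, and Lpl on the line of no difference.

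Other genes of fat and lipid metabolism were taken from 6 lists, of which 65 genes had a mean of at least 5 in remaining tissue. Of these 9 were over 2-fold higher in replicate 2 and 0 in replicate 1, and their median ratio was 1.08. Fatty acid and triglyceride synthesis held 7 of the 9, out of 17 genes with a median ratio of 1.43. Fasn, the fatty acid synthase, had 187 and 769 normalized counts in replicates 1 and 2. Acly, which supplies cytosolic acetyl-CoA, had 50 and 132, and Acaca, the carboxylase that makes malonyl-CoA, 65 and 156. Pck1, a source of glycerol 3-phosphate in fat, had 8 and 39. The remaining 3 of this list were Elovl6 (5 and 20), Agpat2 (8 and 22) and Thrsp (18 and 46). Elovl6 lengthens fatty acids, Agpat2 acylates a precursor of triglyceride and Thrsp promotes lipid synthesis. All 7 are named because they passed 2-fold, after their values were seen.

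The other lists were mostly level between these libraries. Of lipid droplet and triglyceride breakdown genes, 0 of 11 were over 2-fold apart (median ratio 1.00), and of genes of fatty acid uptake and Lpl handling 1 of 13 was, Angptl4, an inhibitor of Lpl (4 and 11). Of the transcription factors of fat cell formation 1 of 12 passed 2-fold, Cebpa (10 and 22), with a median of 1.08. Of adipokines and hormone receptors 0 of 11 did, with a median of 0.990. The factor Pparg had 7 and 8, leptin (Lep) 2 and 2, and the brown fat uncoupling protein Ucp1 3 and 0.

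Markers of other cells were compared in the same way. The summed level of 5 fast myofibre genes went from 203144 in replicate 1 to 215479 in replicate 2, a ratio of 1.06. That of 4 slow myofibre genes went from 1999 to 3432, a ratio of 1.72, with each gene between 1.67 and 1.92. The ratio of the sum was 1.10 for 5 fibroblast genes, 0.988 for 4 endothelial genes, 1.21 for 3 macrophage genes and 1.06 for 4 globin genes. No marker gene with a mean of at least 5 was over 2-fold apart. Slow myofibre genes thus moved with the adipocyte genes, and their part in the result was not tested. Dissection and the muscles taken are not given per library.

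**Figure D3:**
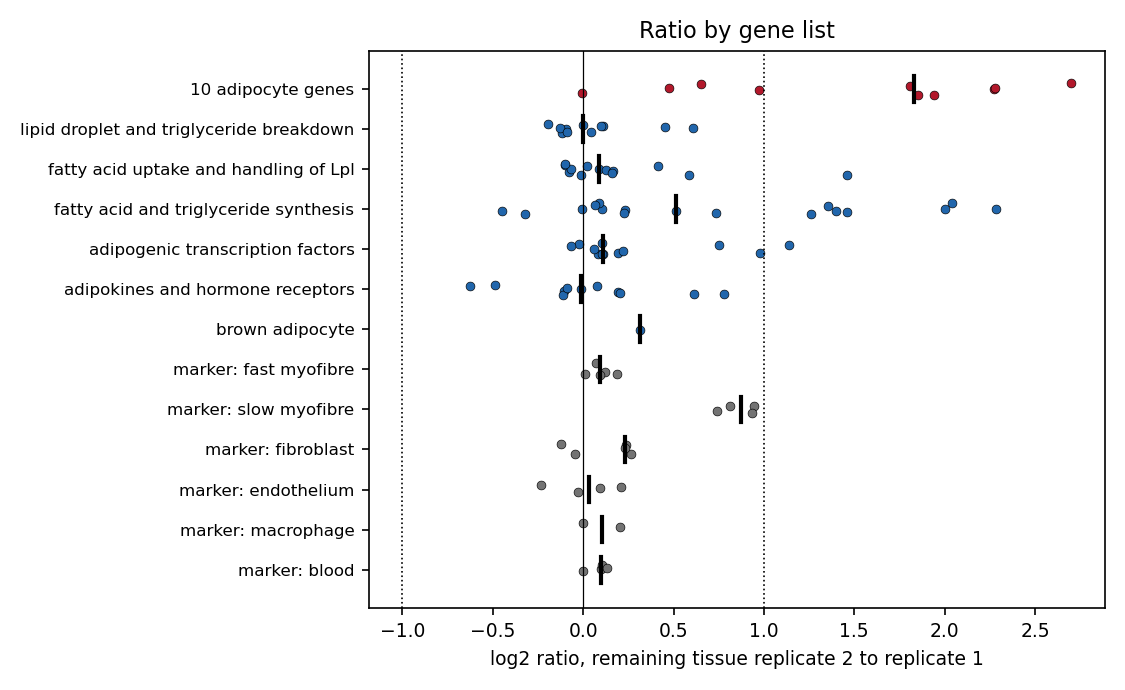
Log2 ratio of remaining tissue replicate 2 to replicate 1 for each gene with a mean of at least 5 in remaining tissue, by list; black bars are medians and dotted lines mark 2-fold. The 10 adipocyte genes spread from 0.995-fold to 6.5-fold, synthesis genes reach 4.88-fold, and the slow myofibre genes lie between 1.67-fold and 1.92-fold.

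The second comparison asked which transcripts differ between isolated mitochondria and remaining tissue. Genes with a mean of at least 20 normalized counts over the 4 libraries were tested, 6916 in all, with limma on log2(normalized count + 1). The adjusted p was under 0.05 for 643 genes (9.3%) that were lower in isolated mitochondria and for 506 (7.32%) that were higher. The median log2 fold change of all genes tested was -0.44, so changes relative to it are also given. Of the adipocyte genes 7 were tested, 1 was lower, 0 were higher, and 1 had an unadjusted p under 0.05 (37.0% of all genes tested). Their median log2 fold change was 0.11. Adipoq, Cidec and Retn had means of 16.2, 19.0 and 3.75 and were not tested.

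Car3 was lower in isolated mitochondria, by limma's log2 fold change of -1.10 (SE 0.23) at an adjusted p of 0.0494, which is -0.66 relative to the median gene. Remaining tissue had a mean of 776 ± 180 and isolated mitochondria one of 356 ± 4.24 (SD over 2 libraries a group), the second from 39 and 71 reads. This call lay close to the threshold and was lost without any 1 of the 4 libraries, at adjusted p of 0.157 and 0.526 without remaining tissue replicate 1 or 2 and 0.112 and 0.106 without isolated mitochondria replicate 1 or 2. With scaling to the total of nuclear genes its log2 fold change was -0.21 (adjusted p = 0.572).

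The other 6 genes did not pass the test, and for most the interval is wide. Fabp4 stood at -0.82 on the log2 scale (SE 0.30) at an adjusted p of 0.141, and with scaling to the total of nuclear genes its sign turned, at 0.08. Lpl stood at 0.47 (SE 0.20) at an adjusted p of 0.169 by limma. DESeq2 on reads called it higher at 0.50, as it did 1171 of all 6916 genes. Limma with scaling to the total of nuclear genes called it higher at 1.37. That setting called 1177 of the 6916 genes higher, and the median log2 fold change of all genes was 0.45. Without isolated mitochondria replicate 1 or 2, which leaves 1 library in that group, Lpl stood at 0.64 and 0.30. Cfd had -1.60 with an SE of 1.16, which leaves room for no change and for a change of several fold. Plin1 (0.26, SE 0.81), Scd1 (0.54, SE 0.73) and Lipe (0.11, SE 0.43) had adjusted p of 0.831, 0.608 and 0.869, and without remaining tissue replicate 1 each turned negative (-0.63, -0.36 and -0.37). Plin1 also did so without isolated mitochondria replicate 1 (-0.30).

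**Figure D4:**
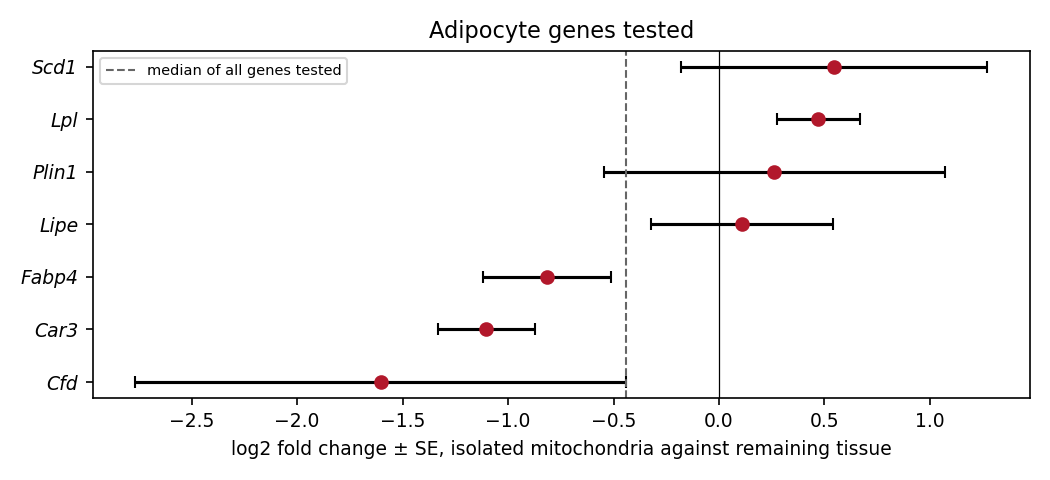
Log2 fold change of isolated mitochondria against remaining tissue for the 7 adipocyte genes tested, with bars of 1 SE from limma; the dashed line is the median of all 6916 genes tested, -0.44. Car3 at -1.10 passed the threshold, Lpl at 0.47 has the shortest bar (0.20), and Cfd at -1.60 the longest (1.16).

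By overlap of the libraries, 2 of the 7 genes tested, Fabp4 and Car3, had both libraries of isolated mitochondria below both of remaining tissue, beside 43.7% of all genes tested. Lpl was the only one of the 7 with both above, beside 25.5%. Neither share of the adipocyte genes exceeds that of all genes tested.

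As a share of reads on nuclear genes, the 10 adipocyte genes together took 1036 and 1752 ppm (reads in 1000000 nuclear reads) in remaining tissue, from an estimated 12421 and 20973 reads, and 2527 and 2330 ppm in isolated mitochondria, from 255 and 422 reads. The means were 1394 ± 507 and 2428 ± 139 ppm (SD, n = 2 each), and both libraries of isolated mitochondria were above both of remaining tissue. The order turned with other totals. Of all reads the 10 genes took 791 and 1371 ppm in remaining tissue and 5.96 and 12.0 ppm in isolated mitochondria, and with copies of the mitochondrial genome counted as nuclear 1018 and 1725 against 126 and 203 ppm. No test was run, because an exact permutation test of 2 against 2 cannot give a two-sided p below 0.33. Scd1 and Lpl took the largest part of the nuclear share in isolated mitochondria. Lpl took 368 and 367 ppm in remaining tissue and 842 and 1065 ppm in isolated mitochondria, while Scd1 took 154 and 541 ppm against 1090 and 563 ppm.

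Of the genes most particular to fat cells, Adipoq, Cidec and Cfd gave another order. Adipoq took 3.5 and 17.0 ppm in remaining tissue, 0 reads in isolated mitochondria replicate 1, which allows up to 29.7 ppm, and 33.1 ppm in replicate 2, with a Wilson interval of 15.2 to 72.3. Cidec took 4.09 and 20.1 ppm, then 0 and 38.6 ppm (18.7 to 79.8). Cfd took 22.4 and 86.0 ppm, then 9.91 ppm (1.75 to 56.1) and 66.2 ppm (37.9 to 115.8). Plin1 did not share this order, with 7.67 and 27.7 ppm, then 49.5 ppm (21.2 to 116.0) and 22.1 ppm (8.59 to 56.8). Retn took 1.17 and 7.69 ppm, then 0 reads in both. Lipe took 16.4 and 32.4 ppm, then 49.5 and 44.2 ppm, the order of the 10 genes together. For Adipoq and Cidec the value of isolated mitochondria replicate 2 included that of remaining tissue replicate 2 within its interval, and the limit of replicate 1 lay above both values of remaining tissue. A difference between fractions in Adipoq or Cidec was not detectable at this depth.

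Among the other genes of fat and lipid metabolism, 52 of the 73 in the table were tested. Of these 9 were lower and 2 higher in isolated mitochondria, beside 9.3% and 7.32% of all genes tested, and their median log2 fold change was -0.75, beside -0.44. An unadjusted p under 0.05 was found for 26 of the 52 and for 37.0% of all genes tested. With scaling to the total of nuclear genes the balance turned, to 3 lower and 7 higher. It turned for all genes tested too, to 191 lower and 1177 higher. Among droplet genes 3 of 9 were lower and 0 higher: Plin4, a droplet coat protein of muscle and fat (-1.38, SE 0.28), and Fitm1 and Fitm2, which help droplets bud from the endoplasmic reticulum (-3.35, SE 0.46, and -1.27, SE 0.24). Fitm1 had 1 read in each library of isolated mitochondria, so its fitted value depends on the pseudocount, and the ratio of isolated mitochondria to remaining tissue from reads was 0.0832 (exact interval 0.0101 to 0.301). Among uptake genes 1 of 7 was lower, Vldlr, the very low density lipoprotein receptor (-2.19, SE 0.18).

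Of the synthesis genes 15 were tested, 4 were lower and 1 higher. Gpam, which starts triglyceride synthesis (-2.16, SE 0.38), Lpin1, a phosphatidate phosphatase (-2.31, SE 0.27), Gpd1, which makes glycerol 3-phosphate (-1.79, SE 0.35), and Me1, a source of NADPH (-1.31, SE 0.25), were lower. Fads1, a fatty acid desaturase, was higher, with 15 and 11 normalized counts in remaining tissue and 81 and 81 in isolated mitochondria (2.57, SE 0.34). Of 9 adipokines and receptors tested, Slc2a4, the insulin-responsive glucose transporter, was lower (-1.80, SE 0.23) and Retnla, a resistin-like protein of macrophages and fat, was higher (3.35, SE 0.40), from 11 and 21 reads. The adjusted p of these 11 genes by limma were 0.0114 to 0.0468. With scaling to the nuclear total 6 of the calls were lost, those of Plin4, Fitm2, Gpam, Gpd1, Me1 and Slc2a4 (adjusted p 0.0678 to 0.328, with log2 fold changes of -0.48, -0.37, -1.27, -0.89, -0.41 and -0.90). Without remaining tissue replicate 1, 7 calls were lost, and without replicate 2, 8, while Vldlr, Lpin1 and Retnla were kept under both.

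None of the 10 transcription factors tested passed the limma threshold, with 2 at an unadjusted p under 0.05. Those with the highest levels in remaining tissue were Rxra, the partner of PPARγ (-0.51, SE 0.25, but 0.39 with scaling to the nuclear total), and Srebf1, which drives lipid synthesis (-1.86, SE 0.63). Of the brown adipocyte list 2 genes were tested and 0 passed, with 2 at an unadjusted p under 0.05: Ppargc1a, a regulator of mitochondrial genes (-1.35, SE 0.37), and Dio2, which activates thyroid hormone (3.49, SE 1.17). Ucp1 had 0 and 2 reads in isolated mitochondria.

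Markers of other cells moved between the fractions too. The sum of 5 fibroblast genes was 1223 and 1343 in remaining tissue and 8017 and 14777 in isolated mitochondria, and 5 of 5 were higher by limma. The sum of 3 macrophage genes was 33 and 40, then 289 and 278, and 2 of 2 tested were higher. The sum of 5 fast myofibre genes was 203144 and 215479, then 35083 and 33349, and 5 of 5 were lower. Slow myofibre genes summed to 1999 and 3432, then 497 and 1123 (0 of 4 called, 2 at an unadjusted p under 0.05), endothelial genes to 417 and 412, then 72 and 126 (1 of 4 lower), and globin genes to 162 and 172, then 99 and 40 (0 of 2 called by limma, 0 at an unadjusted p under 0.05). Every marker was above 0 in each library, except Tnni1, Pecam1 and Hbb-bs, which stood at 0 in isolated mitochondria replicate 1. The part of these in the values of Lpl, Car3 or the other adipocyte genes was not tested. The fragmentation time differed between the groups. According to the methods, mitochondria isolated from hearts were also treated with digitonin and RNase A before RNA extraction. Whether those of skeletal muscle were is not stated there. The effects of such handling and of the fraction cannot be told apart.

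Genes on none of the lists were compared with the pattern of Adipoq, Cfd, Plin1 and Cidec over the 4 libraries. The 1762 of them with a mean of at least 100 in remaining tissue were ranked by the Euclidean distance of their centred log2 values. Listed fat and lipid genes such as Fasn, and all genes at the lower levels of these 4, were thus not candidates. The nearest were Abra, Ccdc50, Stk11, Klc1 and Zmiz2, at distances from 1.28 to 1.45. Their ratios between both libraries of remaining tissue were 1.05 to 1.36, well under those of the 4 genes, and what they share is a low value in isolated mitochondria replicate 1, of 18 to 54 normalized counts from 2 to 6 reads. A likeness over 4 libraries is a description.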

How the data were processed

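RNA of mouse skeletal muscle was measured by RNA sequencing in 4 libraries prepared from small amounts of total RNA with a stranded kit. Groups and replicate numbers come from the labels. According to the submitters' processing notes, the authors used Trimmomatic 0.39 for trimming and STAR 2.7.10a for alignment to mm10 (GRCm38), counted them with featureCounts 2.0.2 and scaled them with DESeq2 1.30.1. The methods name the same aligner, counter and DESeq2 in other versions, and which versions made the deposited values is not settled. According to the methods, reads overlapping several genes or mapping to several places were left out. The strand setting is not given in the sources used here.

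The deposited values are a signal: the authors divided gene counts by a size factor per library and rounded them. In isolated mitochondria 100% of 10508 and 11660 low values were whole multiples (within rounding) of the value of 1 read, 9.05 and 5.06 normalized counts. In remaining tissue reads were estimated at 7.05 per normalized count, taking the median ratio of 8993 genes as level. The same value was used for both libraries of remaining tissue, which assumes that their size factors were equal. Their read totals, reads per gene and the intervals of their ratios rest on this assumption.

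Genes whose mean was 20 or more were fitted together with limma 3.58.1 (trend) in R 4.3.3 on log2(value + 1), two-sided, with Benjamini-Hochberg adjustment over 6916 genes and a threshold of 0.05. The pseudocount of 1 is under the value of 1 read in isolated mitochondria, so changes of genes with few reads there depend on it. With a pseudocount of 10 the log2 fold change of Cfd was -1.24, beside -1.60 in the main test. The limma test replaced a count test as the main test because counts were not analysed here as deposited. Alternatives were edgeR 4.0.16 and DESeq2 1.42.0 on reads, other filters, pseudocounts and scalings, a replicate block, and leaving out each library. Shares have 95% Wilson intervals, ratios of reads exact intervals, and the floor was 3 reads. Gene positions are those of GENCODE M21, with similarity searched by BLAST 2.17.0, and promoters are from RefSeq (GRCm38.p6).

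The genes and lists were chosen with earlier results of these data known. Named genes were the 10 adipocyte genes and all other listed genes past the threshold, otherwise the 2 highest of a list. The 5 unlisted genes most alike were also named. Others named were chosen after their values were seen.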

Additional observations from a re-analysis of the deposited data

How the results depend on the processing

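With 2 libraries a group and few nuclear reads in isolated mitochondria, calls depended on the settings. Of all genes tested 1149 were called; with limma the count was 682 at a mean of at least 5, 3691 with no filter, 6722 with library totals as the scale and 472 to 4841 without 1 library each, where the lone library of a group is assumed to vary like the other group. On reads it was 2157 with edgeR (1820 at a mean of at least 5, chosen after seeing the data), 1977 with edgeR and TMM, and 2501 with DESeq2. Of the adipocyte genes 1 was called. The count was 0 at a mean of at least 5, with no filter, with upper quartile scaling and with edgeR and TMM, 7 (all lower) with library totals as the scale, 2 with DESeq2 (Car3 and Lpl) and 0 to 1 without 1 library. Scaling to the total of nuclear genes also gave 1, but it was Lpl, higher, in place of Car3. Car3 was called lower in 6 of 15 alternatives (adjusted p 0.000334 to 0.572). Lpl was called higher in 4 of 15 and lower in 1, with library totals as the scale. Of the other fat and lipid genes 11 were called, and 6 at a mean of at least 5, 51 with library totals as the scale, 18 with edgeR, 17 with TMM, 25 with DESeq2 and 5 to 34 without 1 library. Higher and lower calls among them were 2 and 9, and 3 and 5 with upper quartile scaling, 7 and 3 with the nuclear total, 6 and 11 with TMM. Vldlr and Lpin1 were called lower in all 15 alternatives. At a mean of at least 5 the calls of Fitm2, Gpam, Gpd1, Me1 and Plin4 were lost (adjusted p 0.0569 to 0.0737), with no filter those of Gpam, Gpd1 and Plin4 (0.0593 to 0.0690), and Plin4 was also lost without either library of isolated mitochondria (0.0947 and 0.0619).

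Of the calls 44.0% were higher in isolated mitochondria, against 55.6% with upper quartile scaling, 86.0% with the total of nuclear genes, 55.9% with TMM and 0.536% with the total of all genes, where medians of all genes were -0.44, -0.21, 0.45, -0.04 and -7.34. Under the total of all genes, which mitochondrially encoded reads dominate, log2 fold changes turned negative for Plin1 (-6.64), Scd1 (-6.36), Lpl (-6.43), Lipe (-6.79), Fads1 (-4.34), Retnla (-3.55) and Dio2 (-3.41). Under the total of nuclear genes Fabp4 (0.0801) and Rxra (0.39) turned positive. With edgeR Plin1 was at -0.0302, and at -0.0300 at a mean of at least 5, where Adipoq (0.15) and Cidec (0.13) turned from the -1.38 and -1.48 of limma with no filter. The cause of these last changes was not tested. Without 1 library the range was -0.63 to 1.15 for Plin1, -0.36 to 1.45 for Scd1 and -0.37 to 0.58 for Lipe.

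The replicate numbers are shared by both groups, but the labels do not say that they mark a pair. Deviations from the group means of same-numbered libraries correlated at 0.14 over 6916 genes and at 0.44 over 580 genes with at least 20 reads in each library of isolated mitochondria. With the replicate number as a block, 1774 genes were called in all, 18 of the other fat and lipid genes and 2 adipocyte genes, Car3 (adjusted p = 0.0144) and Cfd (0.0401, beside a range of 0.00304 to 0.889 over its alternatives), while Fitm2 was lost (0.0515).

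The share of the 10 genes in isolated mitochondria, 2428 ppm, was 8.96 ppm of all reads, 165 ppm with copies of the mitochondrial genome in the total and 2039 ppm without Car3, beside 1394 ppm and then 1081, 1371 and 937 ppm in remaining tissue, so that the first 2 settings turned the order of the fractions. The median log2 ratio of the 10 genes in remaining tissue was 1.83 and 1.11 with a pseudocount of 10, which pulls low genes together.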

Other observations

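Of the 74 genes over 2-fold higher in remaining tissue replicate 2, 6 were adipocyte genes, 9 were on other fat and lipid lists and 59 on no list. The genes named here were picked from the 59 after their values were seen, so they are described and not tested. Several are induced within minutes to hours of a stimulus. The nuclear receptor Nr4a3 had 11 and 54 normalized counts in replicates 1 and 2, Egr1 25 and 83, Fos 38 and 82, Junb 10 and 29, Sik1 22 and 67, and Atf3 3 and 10. The circadian genes Per1 and Per2 had 33 and 103, and 7 and 17. Heat shock genes showed the same direction, with 14 and 65 for Hspa1a, 12 and 57 for Hspa1b and 8 and 21 for the co-chaperone Dnajb1. In isolated mitochondria Hspa1b stood at 27 and 35 and Nr4a3 at 18 and 5, from few reads.

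Other unlisted genes act beside the lipid genes. Slc25a1, the citrate carrier that feeds cytosolic fatty acid synthesis, had 9 and 29, the dicarboxylate carrier Slc25a10 5 and 16, the pentose phosphate enzyme Tkt 26 and 73, and Trarg1, a partner of glucose transporter vesicles in fat, 3 and 11. Slc25a25, a carrier of ATP-Mg and phosphate, had 28 and 119. Of thin filament genes, the slow and cardiac troponin Tnnc1 had 63 and 131 and the cardiac actin Actc1 99 and 226, beside the 1.72-fold sum of the slow myofibre list.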
